A study of Mus musculus with 6 samples.

Results

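The genes described here are 9 genes of retinoid metabolism and signalling in mouse embryonic cortex: Cyp1b1, Cyp26b1, Aldh1a2, Aldh1a3, Crabp1, Crabp2, Rara, Rarb and Rxra. They were chosen by name, and their members on the array are all probe sets that the platform annotation gives to one of these genes alone, which were 15 of the 45037 probe sets, or 9 of the 18193 genes with a probe set of their own. The list was chosen from the measured cKO minus WT differences of these same arrays, which were known when it was drawn up, so those differences are described for the 9 genes with no p-value, and counts of calls among them are given only beside the share over all probe sets, with nothing read from them. Cyp1b1, Aldh1a3 and Rxra had 3 probe sets each, and the other 6 genes had 1 each.

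The arrays hold RNA of 3 cKO and 3 WT embryos at E14.5, all dissected dorsal telencephalon, the part of the forebrain that forms the cortex. The cKO embryos carry a conditional knockout of the histone methyltransferase ESET, encoded by Setdb1, made with Emx2Cre. The WT embryos are labelled wt, and whether they carried Cre is not given in the sources used here. Both groups share the C57BL\6 background and the label male. The design text gives 3 embryos per genotype, read here as 1 embryo for each array. Emx2 is active in progenitors of the dorsal forebrain, so cells of the dissected tissue that never expressed Emx2 keep Setdb1.

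Retinoic acid is made from vitamin A. Retinol is oxidised to retinaldehyde by retinol dehydrogenases, and retinaldehyde to retinoic acid by the ALDH1A enzymes. CRABP proteins carry it inside the cell, receptors of the RAR and RXR families bind DNA as dimers and respond to it, and CYP26 enzymes break it down. In the embryonic forebrain the meninges, which express Aldh1a2, are a known source of retinoic acid. CYP1B1 is a cytochrome P450 that oxidises oestradiol and many aromatic compounds, is induced through the aryl hydrocarbon receptor, and in chick embryos can also make retinoic acid from retinol.

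Values are deposited array intensities on a linear scale. Fold changes are differences of means of log2(intensity + 16), cKO minus WT, with the moderated standard error (SE) of a limma fit over all probe sets, and a probe set was called when its Benjamini-Hochberg adjusted p was below 0.05. Most of the genes gave little signal. Of the 15 probe sets, 9 had a mean below 50 in each genotype, and 10 fell below 16 on at least 1 array. The median intensity of an array was between 91.1 and 119. At such levels the added 16 sets much of the size of a fold change, and a low intensity cannot be read as absence of the transcript.

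Setdb1 itself read 704, 696 and 499.9 on the cKO arrays against 1162, 1185 and 1033 on the WT arrays on its brightest probe set, which did not pass (log2 fold change -0.83, SE 0.18, adjusted p = 0.237 with limma). Of 11 genes of dorsal telencephalon written as a check of the tissue, 9 were analysed here, with a summed intensity between 50471 and 57610 in cKO and between 55006 and 58479 in WT. Emx2, the gene that drives Cre, read 674, 647 and 743 in cKO, against 1197, 1129 and 1395 in WT (-0.83, SE 0.15, adjusted p = 0.142 with limma). The arrays numbered 3 stood apart in both groups. WT 3 had an Xist intensity of 17294 and an Eif2s3y intensity of 22.2, against its label of male. On cKO 3 Xist read 8811 and the Y-linked Eif2s3y 961. Both signals together sit poorly with a single embryo, so the reading of 1 embryo for each array is not settled for cKO 3. Summed erythroid markers were 74085 on cKO 3 and 69441 on WT 3, and between 11274 and 17210 on the other arrays. For each of the 9 genes a fold change without these arrays is therefore also given below. For genes of the other lists it is not given.

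On their brightest probe sets, Cyp1b1 and Crabp1 were higher on every cKO array than on any WT array. Rara was higher by less. Crabp2, Cyp26b1, Aldh1a2, Rarb and Rxra had overlapping groups on each of their probe sets. Aldh1a3 was dim, and its 3 probe sets did not go the same way.

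**Figure D1:**
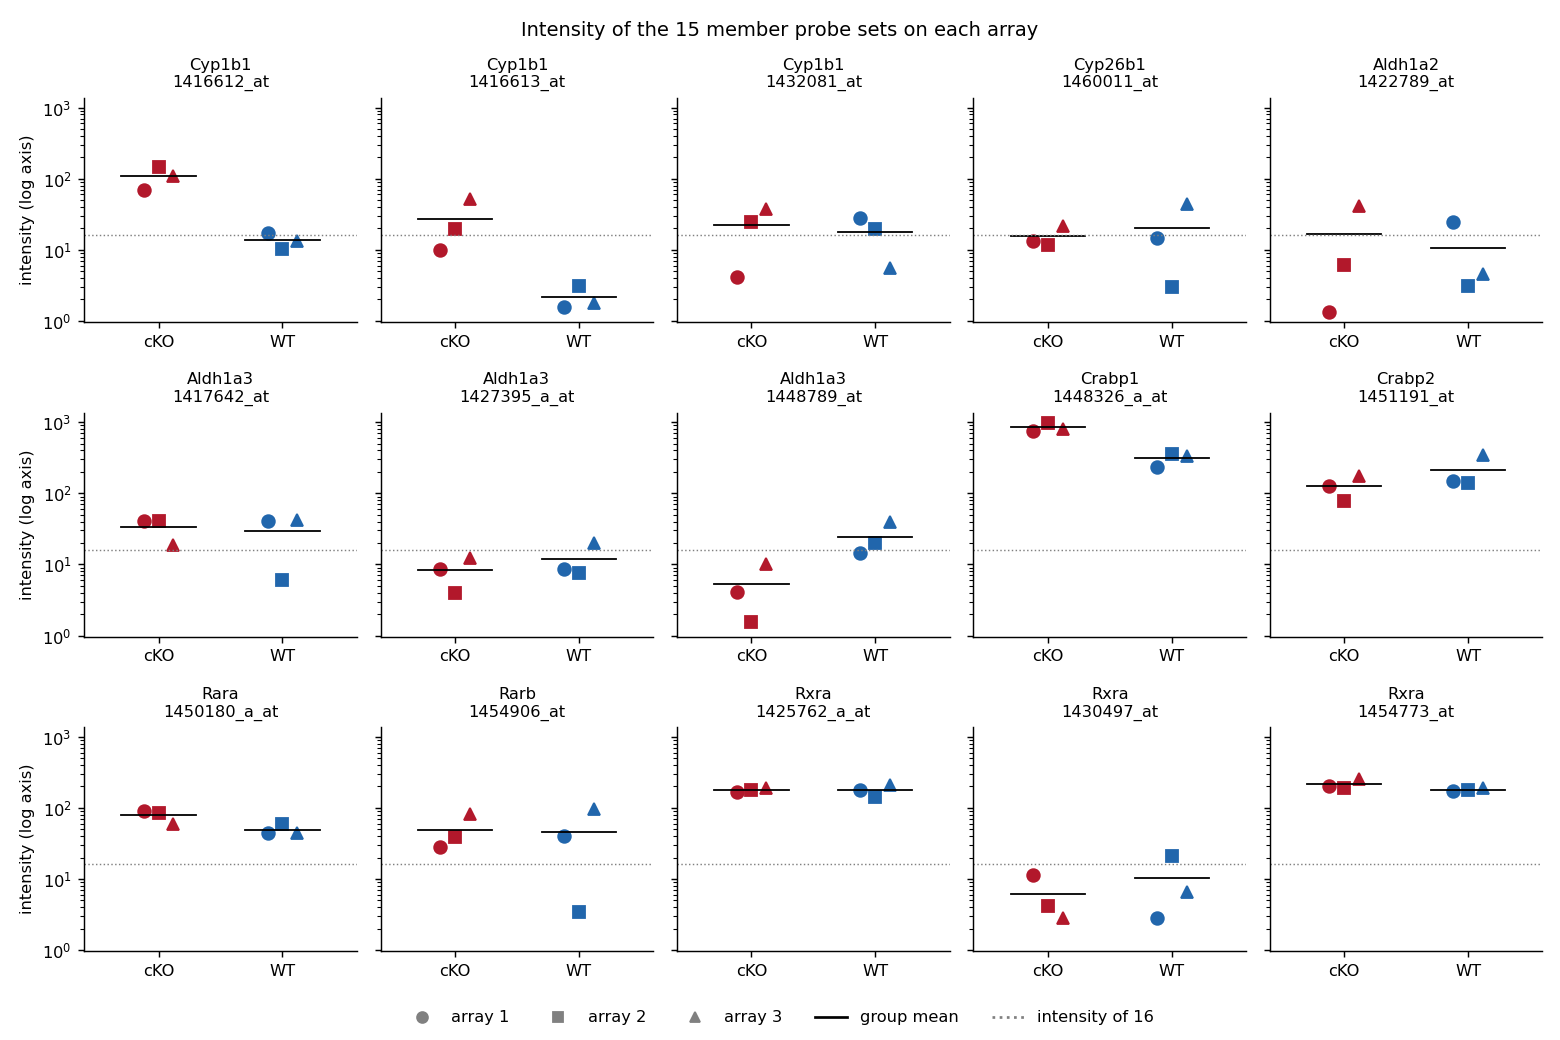
Intensity on a log axis of each of the 15 probe sets on each array, with cKO on the left of each panel and WT on the right. Symbols give the array number, black bars the group means (n = 3) and the dotted line an intensity of 16. Cyp1b1 probe set 1416612_at and Crabp1 have cKO arrays well above the WT arrays, and most other probe sets lie near the dotted line.

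Cyp1b1, on probe set 1416612_at, read 68.8, 144 and 111 in cKO, against 17.3, 10.1 and 13.1 in WT. The groups did not overlap, and the lowest cKO array lay well above the highest WT array. Mean intensity was 108 ± 37.8 in cKO and 13.5 ± 3.63 in WT (SD, n = 3 each), and the log2 fold change was 2.03 (SE 0.26). In cKO this mean lay above that of 50.1% of all probe sets, in WT above 14.55%, so the WT signal is close to the floor of the arrays. The ratio of the mean intensities was 7.98. It depends on a WT mean under 16, and the log2 fold change came to 2.87 with 1 added to each intensity and 1.13 with 64 added, the last below the 1.30 of Crabp1 with the same constant.

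The other probe sets of Cyp1b1 were dimmer. Probe set 1416613_at read 10.1, 19.6 and 51.3 in cKO, against 1.55, 3.11 and 1.79 in WT, again without overlap (log2 fold change 1.13, SE 0.34). The annotation ties it to the same cDNA record as 1416612_at, so the 2 probe sets are not separate evidence. Probe set 1432081_at, tied to another record, read 4.10, 24.9 and 37.2 in cKO and 28.2, 19.3 and 5.53 in WT, where the groups overlapped (log2 fold change 0.13, SE 0.43). Leaving out both arrays numbered 3 gave 1.98 for 1416612_at, 0.73 for 1416613_at and -0.46 for 1432081_at, where cKO 3 had the highest value on both dimmer probe sets.

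Cyp1b1 is also expressed by cells of blood vessels and mesenchyme. The summed intensity of 14 endothelium and pericyte markers was 2857, 2855 and 2701 in cKO, against 4026, 3843 and 3623 in WT, lower on every cKO array. The part of such cells in the level of Cyp1b1 was not tested. In that list limma called 0 genes. Of the 14, 6 lay lower in cKO and 0 higher when p was not adjusted (below 0.05, brightest probe set), where 4.39% of all genes in the gene table were lower and 5.17% higher. The summed 21 meninges and mesenchyme markers were 5666, 5369 and 8639 in cKO, against 7920, 6929 and 9870 in WT, with overlap. The sum and the median gene of that list differ in direction, as the median log2 fold change was 0.19. The bright members Alcam (-0.91, SE 0.13) and Zic1 (-0.84, SE 0.42) weigh on the sum, while the dim Foxc2 was at 0.98 (SE 0.37). In whole tissue, fewer cells of a type and less RNA per cell cannot be told apart.

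The 250 bases before the annotated start of Cyp1b1 and of Crabp1, the genes with the clearest difference, and of Rarb, whose promoter is a textbook target of retinoic acid receptors, are shown from RefSeq (GRCm38.p6), each read 5′ to 3′ on the strand of the gene. Capitals mark 2 motifs, each searched on both strands. One is GCGTG, the core bound by the aryl hydrocarbon receptor with ARNT, which reads CACGC when it lies on the opposite strand, and the other is GGTTCA followed after 5 bases of any kind by AGTTCA, the direct repeat described in Rarb. The Cyp1b1 window is chr17:79715062-79715311 (minus strand), the Crabp1 window chr9:54764498-54764747 (plus strand) and the Rarb window chr14:16575477-16575726 (minus strand).
Cyp1b1: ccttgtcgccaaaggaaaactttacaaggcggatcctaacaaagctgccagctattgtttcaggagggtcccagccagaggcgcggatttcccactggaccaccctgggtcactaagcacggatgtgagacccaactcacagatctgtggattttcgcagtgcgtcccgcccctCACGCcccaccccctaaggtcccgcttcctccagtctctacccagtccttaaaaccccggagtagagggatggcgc
Crabp1: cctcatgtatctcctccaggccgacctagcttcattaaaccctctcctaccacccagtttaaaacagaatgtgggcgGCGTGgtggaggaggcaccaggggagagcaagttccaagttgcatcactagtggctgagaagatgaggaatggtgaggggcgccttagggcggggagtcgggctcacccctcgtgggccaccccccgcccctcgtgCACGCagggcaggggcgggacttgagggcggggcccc
Rarb: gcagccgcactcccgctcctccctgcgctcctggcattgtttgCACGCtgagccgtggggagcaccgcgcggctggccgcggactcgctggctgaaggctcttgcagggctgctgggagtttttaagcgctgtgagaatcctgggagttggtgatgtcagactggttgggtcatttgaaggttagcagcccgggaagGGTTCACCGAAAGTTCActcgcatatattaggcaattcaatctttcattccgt
The Cyp1b1 window holds 1 GCGTG, on the opposite strand 76 to 72 bases before the start, and the Crabp1 window holds 2, at 173 to 169 bases and, on the opposite strand, at 37 to 33 bases. A GCGTG is common, in 28.2% of the 32851 promoter windows of the same length. The Rarb window holds the repeat as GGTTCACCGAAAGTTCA, 53 to 37 bases before the start, and 1 GCGTG, while the repeat occurs in 2 of all 32851 windows. Neither motif overlaps the other in these windows. The Cyp1b1 and Crabp1 windows each hold 12 CpG dinucleotides, more than 66.5% of all windows. RefSeq windows were found for 7 of the 9 genes, and 5 of their 11 windows hold a GCGTG, those of Cyp1b1, Crabp1, Aldh1a2, Rarb and 1 of 4 for Rara. The retinoid receptor site AGGTCA was also searched on both strands and occurred in 1 of the 11 windows, a start of Rxra, and in 14.0% of all windows. A match is a description of letters and says nothing of binding.

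Crabp1 encodes a cytosolic protein that binds retinoic acid. Its only probe set, 1448326_a_at, read 757, 981 and 800 in cKO, against 233, 359 and 335 in WT. The groups did not overlap, and the lowest cKO array was above the highest WT array by more than the range within either group. Mean intensity was 846 ± 119 in cKO and 309 ± 66.8 in WT (SD, n = 3 each), a ratio of 2.74 and a log2 fold change of 1.42 (SE 0.21). Since these levels are far above 16, the fold change moved little with the constant added, between 1.30 and 1.47. The arrays numbered 3 were not apart from the others for this gene, and the fold change without them was 1.52.

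Crabp2, the paralogue, encodes the binding protein known to hand retinoic acid to its nuclear receptors. It read 125, 77.7 and 176 in cKO, against 149, 139 and 350.0 in WT. WT 3 was the highest array by far and cKO 3 the highest of its group, and the groups overlapped. The log2 fold change was -0.63 (SE 0.41), and -0.48 without both arrays numbered 3. On WT 3 Crabp2 lay 1.19 (log2) above the other WT arrays, and on cKO 3 0.74 above the other cKO arrays.

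**Figure D2:**
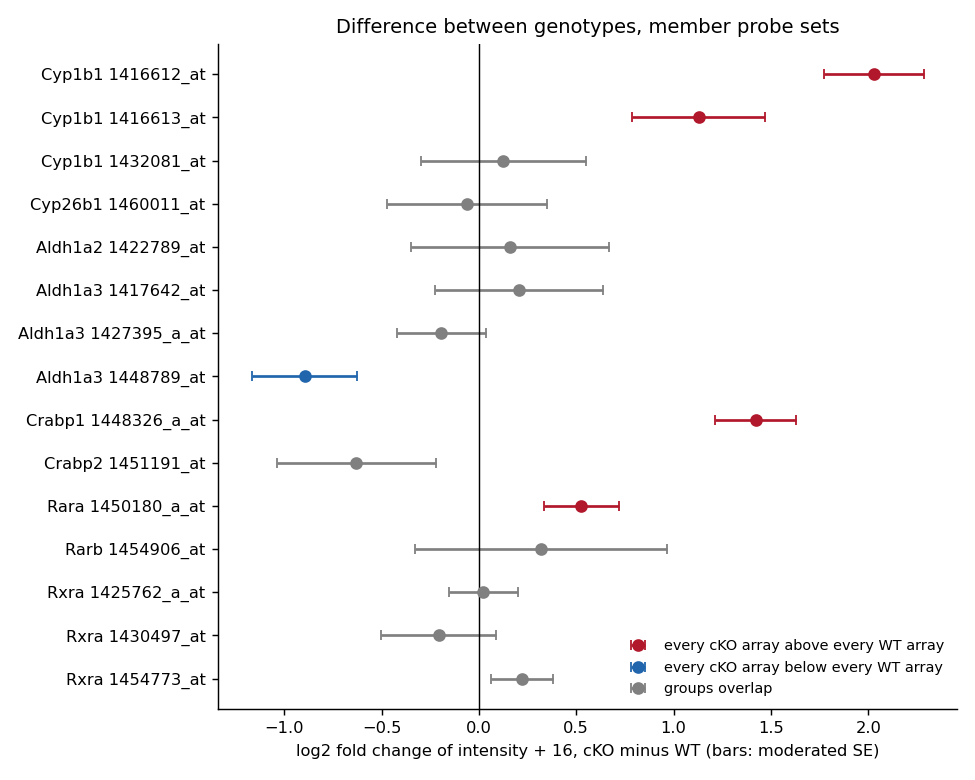
Log2 fold change of intensity + 16, cKO minus WT, for each of the 15 probe sets, with bars for the moderated SE. Red marks probe sets whose cKO arrays all lie above the WT arrays, blue the 1 probe set where they all lie below, and grey those with overlap. Cyp1b1 1416612_at at 2.03 and Crabp1 at 1.42 lie farthest to the right, and Aldh1a3 1448789_at at -0.90 farthest to the left.

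The enzymes that make retinoic acid were near the floor of the arrays. Aldh1a2, the main enzyme of the early embryo and of the meninges, read 1.34, 6.19 and 41.7 in cKO, against 24.5, 3.12 and 4.53 in WT. Only cKO 3 and WT 1 read above 16, the groups overlapped, and the log2 fold change of 0.16 (SE 0.51) turned to -0.50 without both arrays numbered 3. The median meninges and mesenchyme marker lay 1.05 (log2) higher on cKO 3 than on the other cKO arrays and 0.20 higher on WT 3 than on the other WT arrays. The part of such cells in the level of Aldh1a2 was not tested.

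Aldh1a3, known from the lateral ganglionic eminence and the eye, gave 3 dim probe sets. Probe set 1448789_at read 4.13, 1.55 and 10.2 in cKO, against 14.2, 19.8 and 39.0 in WT, with every cKO array below every WT array. Its log2 fold change was -0.90 (SE 0.27), and -0.81 without both arrays numbered 3. The brightest, 1417642_at, read 41.1, 41.0 and 18.7 in cKO, against 41.3, 5.95 and 42.5 in WT, and overlapped (0.21, SE 0.43, and 0.69 without both arrays numbered 3). Probe set 1427395_a_at had means of 8.31 in cKO and 12.1 in WT and overlapped too (-0.19, SE 0.23). The brightest and 1448789_at carry the same cDNA record in the annotation and differ in direction, so the array gives no settled direction for Aldh1a3.

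Cyp26b1, the enzyme that clears retinoic acid, read 13.4, 11.6 and 21.8 in cKO, against 14.54, 3.01 and 43.7 in WT. The array numbered 3 was the highest of each group, and the groups overlapped (log2 fold change -0.06, SE 0.41, and 0.24 without both arrays numbered 3). With means of 15.6 ± 5.45 in cKO and 20.4 ± 21.0 in WT (SD, n = 3 each), a difference smaller than the spread of the WT arrays could not be seen for this gene.

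Among the receptors, Rara was the 1 gene without overlap. It read 88.9, 85.7 and 59.9 in cKO, against 44.6, 58.8 and 43.7 in WT. The gap is narrow, as cKO 3 lay just above WT 2. Means were 78.2 ± 15.9 in cKO and 49.0 ± 8.49 in WT (SD, n = 3 each), with a log2 fold change of 0.53 (SE 0.19) and of 0.62 without both arrays numbered 3.

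Rarb, itself induced by retinoic acid through the repeat shown above, read 28.0, 39.2 and 81.0 in cKO, against 39.97, 3.39 and 96.0 in WT. The arrays numbered 3 were the highest of both groups, and the spread was the widest among the 15 probe sets, with a pooled SD of 0.99 (log2), larger than the fold change of 0.32 (SE 0.65). Without these arrays it was 0.58. Rxra, the shared partner of RAR and other nuclear receptors, was the steadiest. Probe set 1454773_at read 202, 188 and 251 in cKO, against 172, 179 and 188 in WT (log2 fold change 0.22, SE 0.16), and 1425762_a_at averaged 178 ± 10.8 in cKO and 177 ± 34.6 in WT (SD, n = 3 each), a log2 fold change of 0.02 (SE 0.18). Both overlapped, with log2 fold changes of 0.14 and 0.11 without both arrays numbered 3. The third Rxra probe set was near the floor, with means of 6.10 in cKO and 10.3 in WT.

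Read as a group, 4 of the 15 probe sets had every cKO array above every WT array, where 7.47% of all probe sets did, and 1 had every cKO array below, where 6.07% did. Over all probe sets limma called 124 of 45037, or 0.275% (101 higher, 0.224%, and 23 lower, 0.0511%), and 0 of the 15 were among them. With array medians centred the split was 97 higher and 41 lower. With 1 probe set for each gene, fitted and adjusted on its own, 114 of 18193 genes were called, or 0.627% (0.385% higher and 0.242% lower), and Cyp1b1 and Crabp1 were among them. Nothing is read from these counts, since the genes were listed with this comparison known. The median log2 fold change of the 15 was 0.16, against 0.02 over all probe sets.

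Of the 15 probe sets, 7 had their highest value on array 3 in both groups, which is 46.7%, where 24.4% of all probe sets did. Among them, Rarb was shifted by 0.98 (log2) on cKO 3 and 1.77 on WT 3, and Cyp26b1 by 0.41 on cKO 3 and 1.31 on WT 3. Ventral telencephalon markers, which include neighbours of the dissected tissue, had a median shift of 0.14 on cKO 3 and 0.89 on WT 3, and erythroid markers 1.73 and 1.85. Whether these cells contribute to the levels of Rarb, Cyp26b1 or Crabp2 was not tested.

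**Figure D3:**
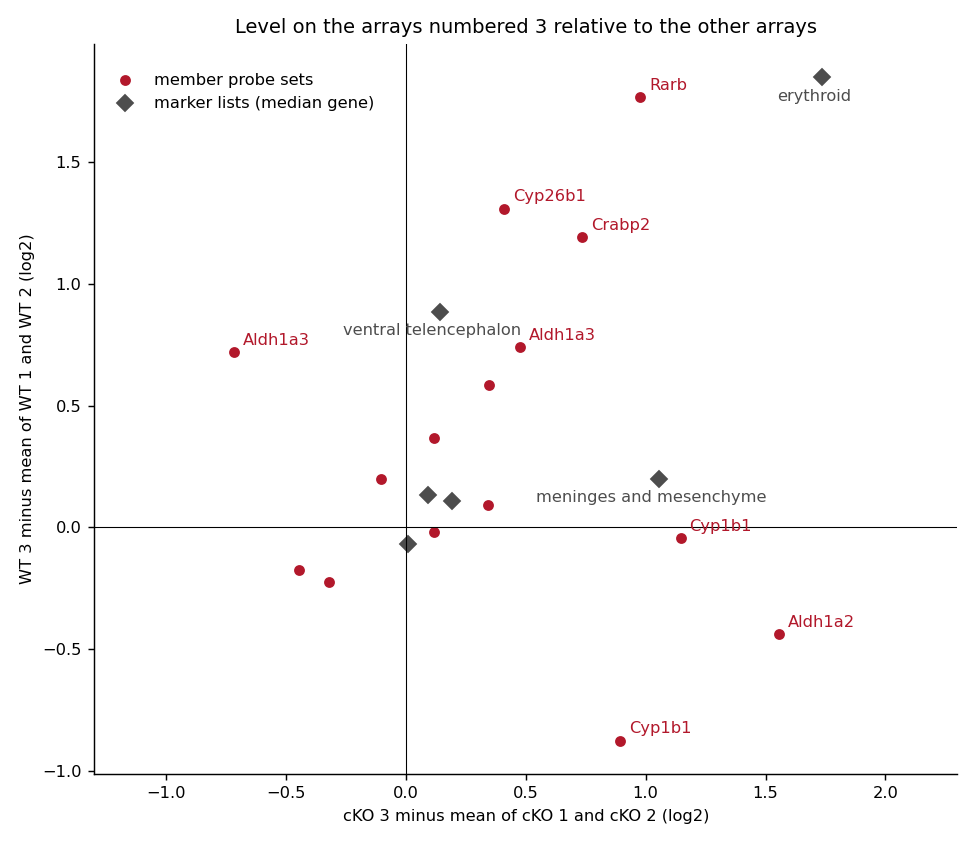
Shift of each of the 15 probe sets (red) and of the median gene of each marker list (grey) on the arrays numbered 3 relative to the other arrays of the same genotype, in log2 units, with cKO on the horizontal and WT on the vertical axis. Rarb and Crabp2 are shifted up in both genotypes, Aldh1a2 in cKO alone, and Cyp1b1 1416612_at and Crabp1 lie within 0.20 of 0 on both axes.

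The rest of the pathway was read from 6 lists with 78 genes, of which 67 were analysed here through 145 probe sets. In these lists limma called 0 probe sets. At an unadjusted p under 0.05, 4 were higher in cKO, or 2.76%, and 8 lower, or 5.52%, where 4.57% and 3.33% of all probe sets were. The median log2 fold change over the 67 genes was 0.00, and 0.01 over all genes. Fold changes below are of the brightest probe set of a gene, and no member named had an adjusted p below 0.187 (limma).

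Genes of retinol supply and storage had a median of -0.06 over 20 genes. Ttr, the carrier of retinol-binding protein and a choroid plexus marker, was at -0.64 (SE 0.20), with 19.6, 29.3 and 20.5 in cKO and 54.3, 50.4 and 31.8 in WT. Rdh10, the retinol dehydrogenase of the embryo, was at -0.37 (SE 0.17), with 323, 346 and 363 in cKO and 396, 546 and 418 in WT. Both had groups that did not overlap. Dhrs3, which reduces retinaldehyde back to retinol and is induced by retinoic acid, was at 0.66 (SE 0.36), with 107, 252 and 110 in cKO and 94.1, 109 and 61.3 in WT, where cKO 2 alone stood out. In the same enzyme families as the 9 genes, Aldh1a1 and Cyp26a1 were below 16 on every array. Aldh8a1 was at 0.40 (SE 0.32), with means of 24.8 in cKO and 16.3 in WT. Aldh1a7 was at 0.31 (SE 0.25), with means of 19.6 in cKO and 13.3 in WT. Both were near the floor and had groups that overlapped.

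The other receptors and binding proteins had a median of 0.05 over 8 genes. Rorb, an orphan receptor of upper layer neurons that can bind retinoids, was at -1.09 (SE 0.22, adjusted p = 0.187), with 210, 184 and 174 in cKO and 516, 309 and 464 in WT. Rarg was at -0.40 (SE 0.26) and Rxrg at 0.56 (SE 0.45), both with overlap. Among 10 coregulators, with a median of -0.04, Nrip1, a corepressor that is itself a target of retinoic acid, was at -0.82 (SE 0.18, adjusted p = 0.244), with 532, 497 and 483 in cKO and 1116, 744 and 887 in WT. The coactivators Ncoa1 and Ncoa3 were at -0.36 (SE 0.16) and -0.18 (SE 0.13).

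Known target genes of retinoic acid had a median of 0.13 over 18 genes. With p not adjusted (below 0.05), 2 were higher and 0 lower, where 5.17% of all genes were higher and 4.39% lower. Hoxb2 read 51.9, 39.99 and 55.2 in cKO, against 9.20, 9.10 and 43.5 in WT, with overlap only through WT 3 (0.95, SE 0.36, adjusted p = 0.581). Hoxa2 was dimmer, with means of 14.52 in cKO and 5.13 in WT (0.53, SE 0.19, adjusted p = 0.545). The target genes Hoxb5, Cdx1 and Cyp26a1 were below 16 on every array. Those with a fold change below 0 were Rarres1 (-0.27), Rarres2 (-0.26), Hoxb4 (-0.18), Tgm2 (-0.15) and the bright Btg2 (-0.05), all with overlap.

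Genes of the aryl hydrocarbon receptor pathway, through which Cyp1b1 is induced, had a median of -0.11 over 9 genes. With p not adjusted, 2 of them passed 0.05, both lower in cKO, where 4.39% of all genes were lower and 5.17% higher. Ahrr, the repressor that this receptor induces, read 43.8, 34.8 and 63.5 in cKO, against 81.3, 82.5 and 67.3 in WT (-0.58, SE 0.20, adjusted p = 0.545). Cyp1a2, of the same enzyme family as Cyp1b1, had means of 3.71 in cKO and 18.6 in WT (-0.79, SE 0.21, adjusted p = 0.342). Nqo1, a further target, was at 0.32 (SE 0.17), with 63.8, 61.5 and 80.3 in cKO and 54.8, 57.7 and 42.2 in WT.

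**Figure D4:**
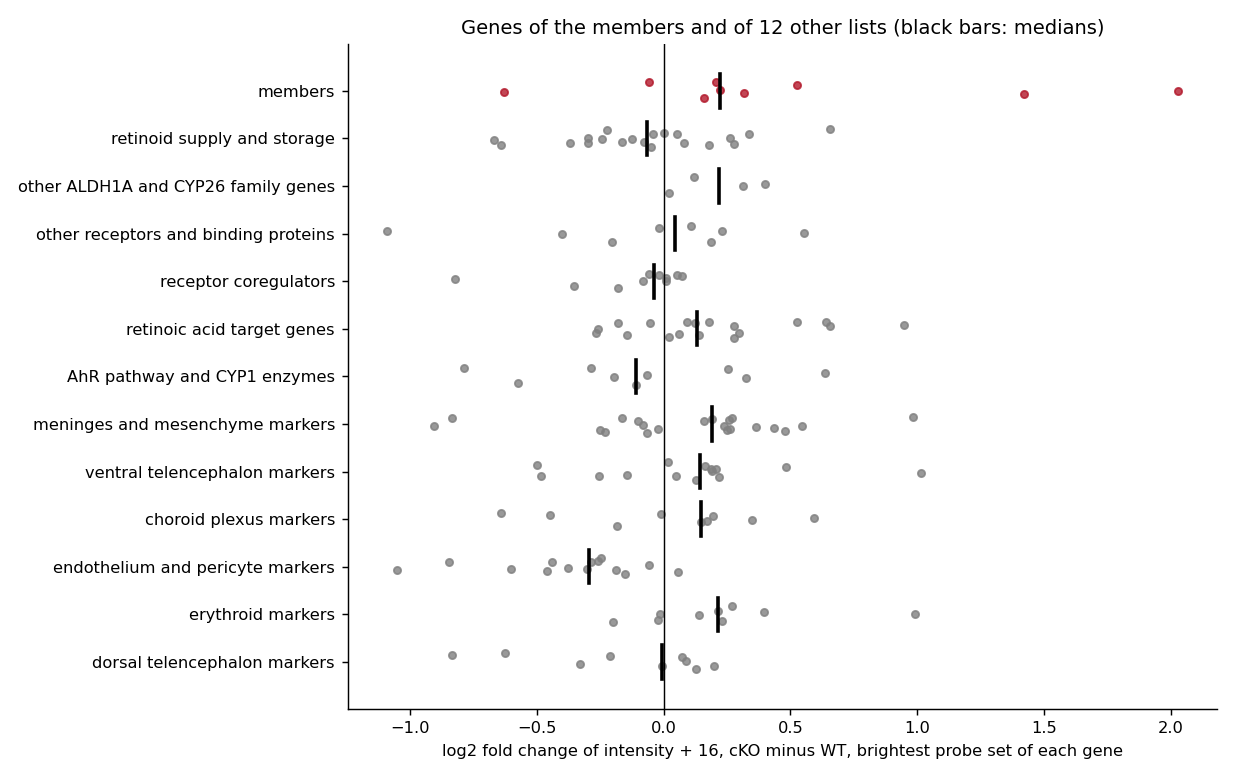
Log2 fold change, cKO minus WT, of the brightest probe set of each gene, for the 9 genes (red) and for 12 other lists (grey), with black bars at the medians. Cyp1b1 and Crabp1 lie to the right of every gene of the 6 pathway lists. Nothing is read from this, since the 9 genes were listed with this difference known. The list medians lie between -0.29 for endothelium and pericyte markers and 0.22.

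The genes most like Cyp1b1 across the 6 arrays were found by Pearson's r of log2 values with 1416612_at, over 19464 named probe sets with a mean of at least 100 in either genotype. They were Rnf128, Lrif1, Kif21a, Rsph3a and Elovl2, with r between 0.99 and 1.00. All were higher on every cKO array, and r over 2 groups of 3 mostly reflects that difference. Rsph3a read 203, 308 and 252 in cKO, against 118, 102 and 93.2 in WT, and Lrif1 read 985, 1287 and 1101 in cKO, against 658, 613 and 629.6 in WT. None was called (limma adjusted p between 0.115 and 0.496). The genes most like Aldh1a2 were Fancg, Bend4, Serf1, Dido1 and Swap70, with r between 0.98 and 1.00. They share its high values on cKO 3 and WT 1, with log2 fold changes between 0.01 and 0.05. Aldh1a2 itself read below 16 on 4 of the 6 arrays, so its r rests mostly on cKO 3 and WT 1. The highest r among 19464 probe sets over 6 arrays is no evidence of shared expression.

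The differences of Cyp1b1 and Crabp1 kept their direction in each setting tried, as groups without overlap must when arrays are left out. Over the fits without 1 array, Cyp1b1 1416612_at ran from 1.82 to 2.28 and Crabp1 from 1.24 to 1.54. Neither was called in any of these 6 fits.

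**Figure D5:**
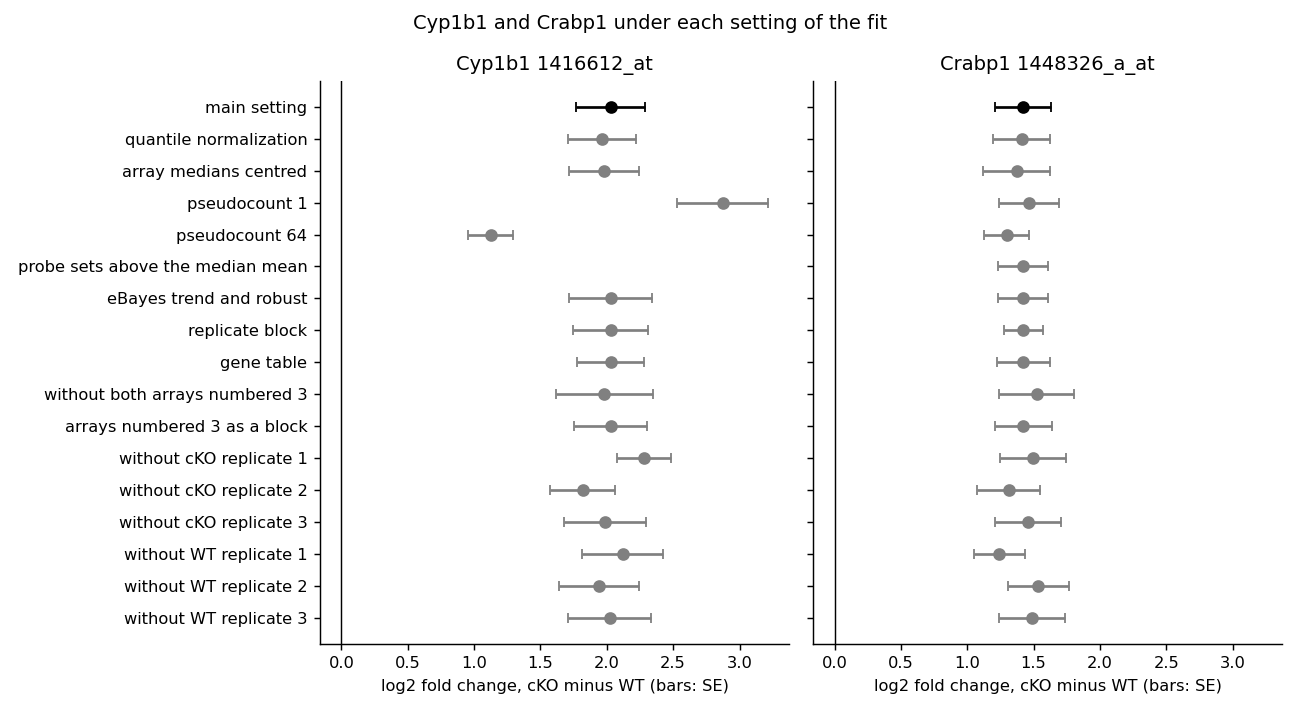
Log2 fold change of Cyp1b1 1416612_at and Crabp1 1448326_a_at, cKO minus WT, under each setting of the fit, with bars for the SE. Cyp1b1 moves between 1.13 and 2.87 with the constant added to the intensities, and Crabp1 stays between 1.24 and 1.54; Cyp1b1 has no point where dim probe sets were left out.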

How the data were processed

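Each of 6 arrays held biotinylated cRNA from 250 ng of total RNA. The authors deposited intensities on a linear scale, made with the Affymetrix Expression Console per the submitters' processing notes. The sources used here give neither its version nor the algorithm. With 2% trimmed off both tails, array means ran from 497.2 to 497.7, so the deposited values share a scaling, and no further normalization was applied. The table holds no detection calls.

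Intensities were taken to log2(intensity + 16). All 45037 probe sets were fitted on genotype alone by limma 3.58.1 in R 4.3.3 (lmFit, eBayes); p-values were adjusted by Benjamini-Hochberg and called below 0.05. The fit was tested on simulated data with independent noise on each array. The deviation that the arrays numbered 3 share was not simulated. Genes were named from the platform annotation. The 9 genes, the lists and the named genes were chosen with earlier results of these data known. All probe sets of the 9 genes are shown. Of each other list the genes past the threshold, or else up to 3 with the smallest p, are named, and the 5 genes most like Cyp1b1 and Aldh1a2 across arrays. Marker lists cover meninges and mesenchyme, ventral and dorsal telencephalon, choroid plexus, endothelium and pericytes, and erythroid cells. Promoters and gene order come from RefSeq GRCm38.p6. The number of arrays limits the precision.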

Additional observations from a re-analysis of the deposited data

How the results depend on the processing

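The 16 alternatives were quantile normalization, centred array medians, added constants of 1 and 64, leaving out dim probe sets, trend and robust variance, the replicate number as a block, the gene table, the arrays numbered 3 left out or as a block, and each array left out in turn. Against 101 probe sets higher and 23 lower in cKO in the main fit, a constant of 1 gave 41 and 7, a constant of 64 gave 56 lower, dim probe sets left out gave 166 and 86, trend and robust variance gave 174 and 83, centred medians gave 41 lower, and the gene table gave 44 lower. Without both arrays numbered 3, limma called 8 higher and 0 lower, and without 1 array between 19 and 34 higher and between 0 and 2 lower. The replicate block gave 7 higher and 0 lower. Deviations from the group mean had correlations of 0.08, 0.19 and 0.41 between arrays sharing the numbers 1, 2 and 3. The arrays numbered 3 deviated alike, as cKO 3 had -0.16 with WT 1 and -0.31 with WT 2. By contrast, cKO 1 had a higher value with WT 2 (0.16) than with WT 1. Deviations from a mean of 3 arrays sum to 0, so the arrays numbered 3 partly set the values among the others. These values cannot decide whether the arrays numbered 1 and 2 pair. The labels do not state that the numbers pair embryos.

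Of the 15 probe sets, 0 were called in the main fit, 1 with centred medians (Cyp1b1), 1 with a constant of 64 and 1 with dim probe sets left out (Crabp1), and 2 with trend and robust variance and in the gene table (both genes). The brightest probe set of Cyp1b1 came to 2.87 with a constant of 1 and 1.13 with 64, and ran from 1.82 to 2.28 without 1 array. It was too dim for the fit without dim probe sets. The sign turned in at least 1 alternative for 8 of the 15 probe sets, none of them called. Of the other 12 lists 0 probe sets were called in the main fit, 1 with a constant of 64 and in the gene table (Alcam), and 2 with dim probe sets left out or with trend and robust variance (Alcam and Emx2), all lower in cKO.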

Other observations

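Neighbouring genes on the chromosome were looked at after the values of Cyp1b1 and Crabp1 were seen, taking the 2 nearest protein-coding genes on each side, in RefSeq order, that have a probe set of their own. Beside Cyp1b1, Rmdn2 was at 0.17 (SE 0.27) and Hnrnpll, an RNA-binding protein, at 0.26 (SE 0.16) as the nearest on each side, 4933407O12Rik was at 0.39 (SE 0.25), and Cdc42ep3, an effector of the GTPase CDC42, was at -0.42 (SE 0.17), with 1115, 1064 and 1200 in cKO and 1464, 1294 and 1819 in WT. Beside Crabp1, Wdr61 was at 0.05 (SE 0.17), Ireb2, an iron regulatory protein, at 0.10 (SE 0.17), Dnaja4 at -0.27 (SE 0.24) and Hykk at 0.02 (SE 0.19). None of the 8 was called, with limma adjusted p between 0.625 and 0.999, and with p not adjusted Cdc42ep3 alone passed 0.05.

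The marker lists held no gene called in the main fit. The 14 ventral telencephalon markers had a median log2 fold change of 0.14, with members on both sides of 0, among them Isl1 at -0.50, Dlx6 at -0.48 and Dlx2 at 0.02, which were picked after their values were seen. Those with the smallest p were Nkx2-1, a factor of the medial ganglionic eminence, which read 34.2, 20.7 and 63.2 in cKO, against 6.19, 5.94 and 20.4 in WT (1.01, SE 0.34, adjusted p = 0.503), Gad1, the enzyme that makes GABA, which read 1724, 1380 and 1284 in cKO, against 958, 1102 and 1044 in WT (0.48, SE 0.17, adjusted p = 0.519), and Lhx6, a factor of interneurons (0.19, SE 0.14). The 21 meninges and mesenchyme markers had a median of 0.19. Alcam, an adhesion molecule also of neurons, read 1315, 1235 and 1331 in cKO, against 2308, 2502 and 2513 in WT (-0.91, SE 0.13, adjusted p = 0.082). Foxc2, a factor of mesenchyme, lay the other way, with 9.58, 16.5 and 52.7 in cKO, against 4.46, 0.89 and 5.37 in WT (0.98, SE 0.37, adjusted p = 0.575), and Zic1 was at -0.84 (SE 0.42) with overlap.

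The 14 endothelium and pericyte markers had a median of -0.29. Abcc9, a potassium channel subunit of pericytes, read 189.8, 112 and 179.5 in cKO, against 341, 368 and 320.0 in WT (-1.05, SE 0.22, adjusted p = 0.196). The endothelial receptor Tie1 was at -0.85 (SE 0.21) and endomucin, Emcn, at -0.46 (SE 0.13), both without overlap. Rgs5, Cldn5, Kcnj8 and Esam were also lower without overlap. Groups overlapped for Pecam1 (0.06, SE 0.15), Pdgfrb (-0.06, SE 0.17), Tek (-0.15), Cdh5 (-0.19), Kdr (-0.25), Flt1 (-0.26) and Cspg4 (-0.29). The 9 dorsal telencephalon markers had a median of -0.01, and after Emx2 the smallest p were those of Eomes, a factor of intermediate progenitors (-0.63, SE 0.15, without overlap), and Bcl11b, a factor of deep layer neurons (-0.33, SE 0.17, with overlap). Dorsal markers above 0 were Neurod6 (0.20, SE 0.19), Neurog2 (0.13, SE 0.13, without overlap), Pax6 (0.09, SE 0.14) and Lhx2 (0.07, SE 0.19). Choroid plexus markers had a median of 0.15 over 9 genes, with Kl at 0.59 (SE 0.35) and Folr1 at 0.35 (SE 0.25). Those below 0 were Ttr (-0.64, SE 0.20), Otx2 (-0.45, SE 0.45), Clic6 (-0.18, SE 0.18) and Aqp1 (-0.01, SE 0.19). Erythroid markers had a median of 0.21 over 9 genes. Hba-a1 was at 0.99 (SE 0.38), Klf1 at 0.27 (SE 0.27) and Epb42 at 0.39 (SE 0.70), all with overlap. The probe set of Hba-a1 was dim, with means of 34.7 in cKO and 9.72 in WT. Those below 0 were Hbb-bh1 (-0.20, SE 1.69), Gata1 (-0.02, SE 0.38) and Hbb-y (-0.01, SE 0.65).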
